A study of Mus musculus with 20 samples.

Results

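This report describes 4362 autosomal stretches of the mouse genome that lay under a 5-formylcytosine (5fC) peak in both *Tdg* null hearts and both *Tdg* null carcasses of E11.5 embryos, and that touched no peak of the 4 *Tdg* null hindbrains or of the *Tdg* null liver of embryo i1. The genome was read in steps of 100 bp, and stretches of at least 200 bp were kept. These are called heart-and-carcass-only stretches here, where "only" refers to the called peaks of these 9 null libraries. In wild-type (WT) embryos, 131 of them lay under a liver peak and 32 under a heart peak. They were 10.3% of the 42517 stretches that the same 4 heart and carcass libraries shared when hindbrain and liver were ignored, and they held 2.53 Mb. The stretches were chosen by the peaks of those 9 null libraries, so what they show in these libraries is a description and carries no test.

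5fC was captured by a pull-down in which an aldehyde-reactive probe carries biotin to the base, and peaks were called separately for each library. Hindbrain came from 4 WT embryos (2A8, O3, Q3 and Z3) and 4 *Tdg* null embryos (2A2, O4, Q2 and Z1), 1 pair from each of 4 litters. Heart, liver and carcass came from WT embryos i6 and i9 and *Tdg* null embryos i1 and i5, and the 3 tissues with the same identifier are from 1 embryo, so they are not independent samples. The null embryos carry a *Tdg* allele in which the catalytic region was exchanged for a neomycin selection marker. Carcass is what was left of the embryo after dissection, and each tissue holds many cell types, so more cells carrying 5fC at a stretch and more 5fC per cell cannot be told apart. The files hold peak positions with no gene expression, so the tissue labels could not be checked against marker transcripts.

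TET enzymes oxidise 5-methylcytosine stepwise to 5-hydroxymethylcytosine, 5fC and 5-carboxylcytosine. TDG, a DNA glycosylase, excises the latter pair, and base excision repair then puts back an unmodified cytosine. Without TDG, 5fC accumulates where TET enzymes act, and it has been described at enhancers, exons and repeats, among other DNA. Heart muscle, endothelium, skeletal muscle and most of the connective tissue of the embryo derive from mesoderm, which the heart and the carcass share. The paper describes liver as of mixed endoderm and mesoderm lineage, so mesoderm does not set heart and carcass apart from it.

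The stretches that recurred in WT tissue are shown first, since the WT libraries had no part in the choice. Each sequence below is the 30-base window with the most CpG dinucleotides in its stretch, on the plus strand of NCBIM37 (mm9), with CpG in capitals, because 5fC in mammals arises mainly at CpG. Fgf2 encodes a fibroblast growth factor, Xylt1 an enzyme that starts glycosaminoglycan chains on proteoglycans, Gli2 a transcription factor of hedgehog signalling, Tgfb2 a transforming growth factor, Zeb2 a zinc-finger repressor active in mesenchyme, and Stk39 a kinase that regulates ion cotransporters.
Fgf2 promoter, chr3:37279036-37279065: CGagaCGaggctactttaaCGatgtccctg
Xylt1 intron, chr7:124700274-124700303: CGccaccaaagtCGgaagacaaCGggcagg
between genes, chr17:29897036-29897065: acCGaggccctcCGtgcaaagCGctattat
between genes, nearest start Gli2, chr1:121004874-121004903: CGgggagttcCGaatctctctCGtaggCGg
between genes, nearest start Tgfb2, chr1:188331607-188331636: CGCGggaaagCGgcatgacctgacCGgatt
Zeb2 intron, chr2:44897153-44897182: CGcCGCGccCGccccatggggtCGgcagtg
Stk39 intron, chr2:68269436-68269465: CGgggattcCGagggcttaacaagcacCGt

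At the Fgf2 promoter the stretch was chr3:37278801-37279800, 1000 bp with 19 CpG dinucleotides. The null peaks over it were 1100 bp in heart i1 and 1000 bp in each of heart i5, carcass i1 and carcass i5. WT peaks covered it in carcass i9 (800 bp), heart i6 (500 bp) and heart i9 (400 bp), and no peak of WT carcass i6, WT liver or WT hindbrain did. Both WT hearts therefore had a peak here, which was the case for 2 of the 4362 stretches. The share of all heart-and-carcass stretches under both WT hearts was not computed. The nearest null hindbrain or liver peak was 300 bp away.

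The intronic stretch of Xylt1, chr7:124700001-124700800, lay under peaks of WT carcass i6 (500 bp), WT carcass i9 (600 bp) and WT heart i6 (600 bp). It directly abutted a null hindbrain or liver peak. The intergenic stretch chr17:29896701-29897400, with 29 CpG dinucleotides in 700 bp, lay under the same 3 WT libraries, with peaks of 500, 500 and 300 bp, and also under a 600 bp peak of WT hindbrain Q3. These and the Fgf2 promoter were the 3 stretches that lay under 3 of the 4 WT heart and carcass libraries, and none lay under all 4.

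Other stretches lay under both WT carcasses and under no WT heart. The stretch chr1:121004601-121006100, whose nearest gene start was that of Gli2, was 55154 bp from it. The WT carcass peaks there were 600 bp (i6) and 1000 bp (i9) long. The stretch chr1:188331501-188332800, whose nearest gene start was that of Tgfb2, was 125998 bp from it, with WT carcass peaks of 1200 and 1300 bp. In the Zeb2 intron the WT carcass peaks were 800 and 1100 bp, and in the Stk39 intron 700 and 800 bp. No WT liver or WT hindbrain peak covered these 4 stretches.

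In all, 464 stretches (10.6%) lay under a peak of at least 1 of the 10 WT libraries, against 36.0% of all heart-and-carcass stretches. Of these, 321 lay under a WT carcass peak, 131 under a WT liver peak, 32 under a WT heart peak and 30 under a WT hindbrain peak. Carcass i6 covered 205 stretches (4.70%, 95% exact binomial interval 4.09 to 5.37%, counting error only), where 20.0% of all heart-and-carcass stretches were covered. Carcass i9 covered 199 (4.56%, interval 3.96 to 5.22%), against 18.3%. The 2 carcasses had 83 stretches in common, which were 40.5% of those under carcass i6 and 41.7% of those under carcass i9. The same overlap was not computed over all heart-and-carcass stretches, so it cannot be read as particular to these.

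WT heart covered few stretches. Heart i6 covered 24 (0.550%, interval 0.353 to 0.818%), against 1.78% of all heart-and-carcass stretches, and heart i9 covered 10 (0.229%, interval 0.110 to 0.421%), against 2.38%. WT liver i6 covered 129 stretches (2.96%, interval 2.47 to 3.50%), against 6.84%, although the null liver of embryo i1 covered none by the rule. WT liver i9 covered 6 (0.138%), against 0.739%. WT hindbrain 2A8, O3 and Q3 covered 2, 6 and 23 stretches, which were 0.0459%, 0.138% and 0.527%, against 0.833%, 6.20% and 12%. WT hindbrain Z3 covered 0 of 4362 stretches, which allows a share of up to 0.0688% by the limit of 3 counts and 0.0845% by the exact binomial interval, where 0.706% of all heart-and-carcass stretches were covered. In each of the 10 WT libraries the heart-and-carcass-only stretches were thus covered less often than all heart-and-carcass stretches. They were also shorter, with a median of 500 bp against 700 bp, and the part of length in this difference was not tested.

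**Figure D1:**
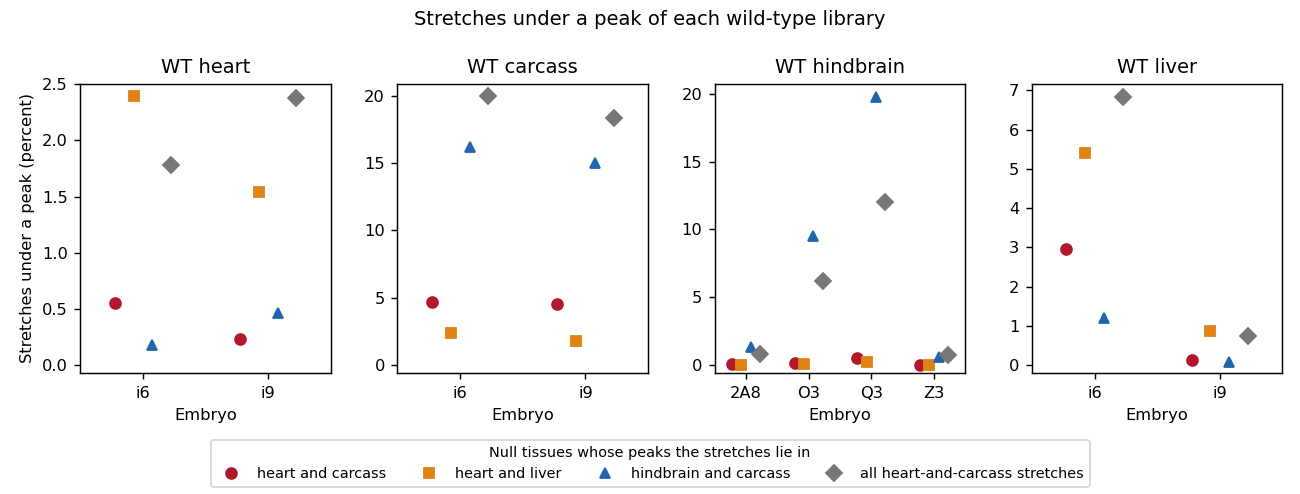
Percent of stretches under a peak (y axis, a separate linear scale for each tissue) in each WT library (x axis, embryo), for stretches only in null heart and carcass (red circles), only in null heart and liver (orange squares), only in null hindbrain and carcass (blue triangles) and all stretches shared by null heart and carcass (grey diamonds). The red circles sit below the grey diamonds in all 10 libraries, at 4.70% and 4.56% in carcass.

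WT libraries differ widely in their number of peaks, from 1563 to 42013, so each was divided by its own share over all heart-and-carcass stretches. This ratio was 0.235 and 0.249 in carcass i6 and i9, 0.309 and 0.0964 in heart i6 and i9, 0.433 and 0.186 in liver i6 and i9, and 0.0551, 0.0222, 0.0438 and 0 in hindbrain 2A8, O3, Q3 and Z3. Every heart and carcass ratio was above every hindbrain ratio, and of the liver ratios 1 lay above those of heart and carcass and 1 among them. The rule had removed stretches with a null hindbrain or null liver i1 peak, while this background of all heart-and-carcass stretches kept them. The part of the rule in the WT hindbrain and liver ratios was not tested. The mean ratio was 0.222 ± 0.0899 (SD, n = 4) in WT heart and carcass and 0.123 ± 0.165 (SD, n = 6) in WT hindbrain and liver, a difference of 0.0991 that did not exceed the spread between libraries (two-sided exact permutation test over 210 assignments, p = 0.329). With WT liver i6 left out the difference was 0.161 (exact p = 0.0397), so the outcome of this test rested on that library. Libraries of 1 embryo are not independent, and within the embryos that gave both, heart and carcass were on average 0.0870 lower than liver, with both embryos in that direction (paired exact p = 0.5, the smallest 2 embryos allow).

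Against hindbrain alone, with 1 value per embryo, the ratio was 0.222 ± 0.0702 (SD, n = 2 embryos) in heart and carcass and 0.0303 ± 0.0244 (SD, n = 4 embryos) in hindbrain. The difference of 0.192 had a two-sided exact permutation p = 0.0667, which is the smallest that 2 embryos against 4 can give. This design could not reach 0.05. The hindbrains came from other litters than the hearts and carcasses, so tissue and litter cannot be told apart here. With the heart-and-liver class in place of all heart-and-carcass stretches as the background, the difference turned to -0.355 (exact permutation p = 0.8). WT hindbrain 2A8 was dropped there because it covered no stretch of that class. With the hindbrain-and-carcass class, which holds only stretches under null hindbrain peaks, the difference was 1.02 (exact permutation p = 0.0667). The rule had removed every stretch with a null hindbrain peak, and its part in the low WT hindbrain values was not tested.

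Beside the other classes formed in the same way, WT carcass i6 covered 2.34% of the 11517 stretches only in null heart and liver, 16.2% of the 12326 only in null hindbrain and carcass, and 35.7% of the 12316 in all 4 null tissues, against 4.70% here. WT heart i6 covered 2.40%, 0.178% and 2.70% of these, against 0.550% here. WT liver i6 covered 5.39%, 1.19% and 9.50%, against 2.96% here. In embryo i6 the heart-and-carcass-only stretches were therefore between the other pairs in all 3 tissues. In WT heart i9 they were below both, with 0.229% against 1.54% of the heart-and-liver and 0.462% of the hindbrain-and-carcass class. WT hindbrain 2A8, O3, Q3 and Z3 covered 0%, 0.0521%, 0.243% and 0.0174% of the heart-and-liver class, which also excluded null hindbrain peaks. They covered 0.0459%, 0.138%, 0.527% and 0% here, and 1.33%, 9.52%, 19.8% and 0.608% of the hindbrain-and-carcass class.

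Measured as bases, 3.99 and 4.53 times more of the stretches than of the autosomes lay under WT carcass peaks (i6 and i9), 2.67 and 1.02 times under WT heart peaks, 7.51 and 3.32 times under WT liver peaks, and 0.524, 0.360, 0.826 and 0 times under WT hindbrain peaks of 2A8, O3, Q3 and Z3. All heart-and-carcass stretches together were covered at 8.56 to 21.8 times the autosomal share over the 10 libraries. The second null liver, of embryo i5, had 228 peaks, against 101344 in null liver i1. It covered none of the stretches, and 0.0188% of all heart-and-carcass stretches. With so few peaks, this absence cannot show that the stretches lack 5fC in liver. The paper left out 1 null liver replicate because its quality was poor, and does not name it.

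Among the 9 libraries of the rule, null heart i1 and both null carcasses had more DNA under peaks than the null hindbrains and liver, and null heart i5 was within the hindbrain range. Peaks covered 8.59% and 3.87% of autosomal bases in null heart i1 and i5 and 5.72% and 8.01% in null carcass i1 and i5, against 2.84 to 3.89% in the null hindbrains and 3.23% in null liver i1. The part of this in the number of stretches was not tested beyond 1 alternative. When each library kept only its longest peaks, equal in number to the smallest of the 9, 1782 stretches met the rule, of which 1726 were among the 4362.

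At the stretches, the median peak was 900 bp in heart i1, 600 bp in heart i5, 700 bp in carcass i1 and 900 bp in carcass i5. The heart i5 peak was the shortest of the 4 in 57.2% of stretches. The stretches themselves, which are the bases all 4 peaks share, ran from 200 to 3800 bp with 306 (7.02%) of at least 1 kb. Their quartiles were 400 and 700 bp. At the length limit, 203 members were 200 bp long, and 196 stretches of 100 bp were left out.

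**Figure D2:**
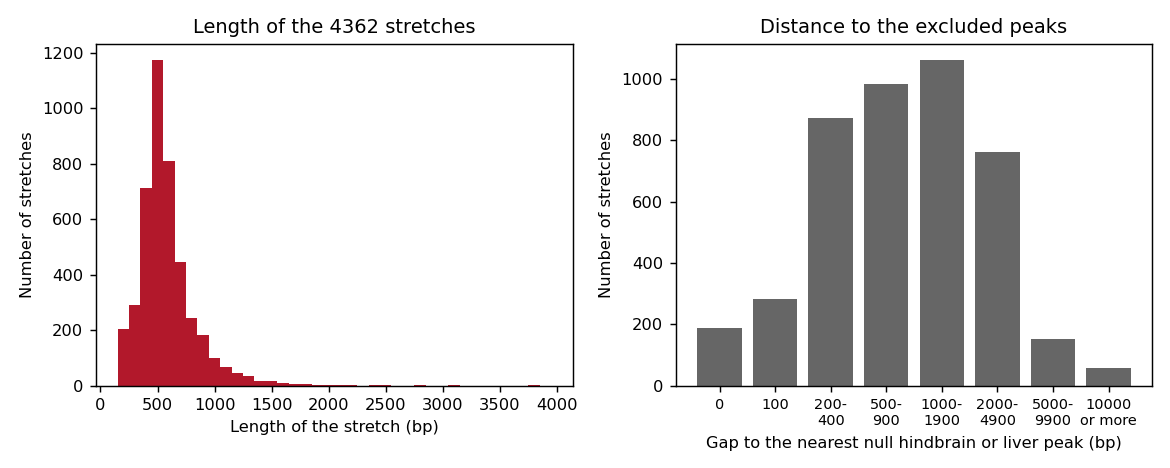
Left, number of heart-and-carcass-only stretches (y axis) by length in bp (x axis, bins of 100 bp). Right, number of stretches (y axis) by the gap in bp to the nearest null hindbrain or null liver i1 peak (x axis, unequal bins), where the median gap is 900 bp.

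Most stretches lay close to DNA that did carry a peak in null hindbrain or liver. The median gap to such a peak was 900 bp, 2460 stretches (56.4%) had one within 1 kb, 189 directly abutted one, and 58 had none within 10 kb. Among all 100 bp steps of the autosomes that were clear of null hindbrain and liver peaks the median gap was 3900 bp, and 20.4% were within 1 kb. The same gap was 1300 bp for the heart-and-liver class and 3100 bp for the hindbrain-and-carcass class, each measured to its own excluded tissues. In 1162 stretches (26.6%) the peak of at least 1 of the 4 heart and carcass libraries itself ran on into a null hindbrain or liver peak, and in 3200 (73.4%) none did.

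Just outside the rule were 121 stretches that were dropped because only 100 bp of them touched a null hindbrain or liver peak. Of the 38155 dropped stretches, 12288 touched hindbrain only, 5146 touched the liver only and 20721 touched both. Liver rested on 1 library, and without it 9508 stretches met the rule.

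The 10 longest stretches lay mostly in introns. The longest, chr12:109608601-109612400, was 3800 bp in an intron of Eml1, which encodes a microtubule-associated protein. Its null peaks were 6100 bp in heart i1, 3800 bp in heart i5, 6500 bp in carcass i1 and 6600 bp in carcass i5, and both WT livers had a peak on it, of 1100 and 600 bp. The Sh3bp5 promoter followed with 3100 bp (chr14:32219201-32222300; null peaks of 4900, 4200, 3100 and 4000 bp in the same order, and 700 bp in WT carcass i9). Sh3bp5 encodes a mitochondrial binding partner of the JNK kinases. The third, of 2800 bp in an intron of Prrc2b, had a 900 bp peak in WT carcass i9.

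Others of the 10 longest were in Bcar1, Pmepa1 and Itgb5. Bcar1, a scaffold protein of focal adhesions, held 2400 bp (chr8:114261501-114263900), with null peaks of 8500, 2500, 2400 and 2400 bp in heart i1, heart i5, carcass i1 and carcass i5. Pmepa1, a target and inhibitor of TGF-beta signalling, held 2000 bp with null peaks of 4700, 4600, 2000 and 4600 bp. Itgb5, the integrin beta 5 subunit, held 1900 bp with null peaks of 2100, 2000, 2800 and 4300 bp. No WT peak covered these 3 stretches. Their most CpG-rich windows are shown beside those of Eml1 and Sh3bp5, with CpG in capitals, as examples of long stretches with and without WT peaks.
Eml1 intron, chr12:109610605-109610634: gcttccacCGggCGccagcagagcCGgcCG
Sh3bp5 promoter, chr14:32220733-32220762: CGtgCGCGgtggaggggcccaggctatatg
Bcar1 intron, chr8:114263399-114263428: gtgagcatagcagagCGccCGgctggccCG
Pmepa1 intron, chr2:173077309-173077338: gcaggctcCGctggaaagggaggCGgctCG
Itgb5 intron, chr16:33945386-33945415: CGtctaagttacCGtctgcccctagacagg

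Introns held the midpoint of 62.3% of the stretches (interval 60.8 to 63.7%), against 38.4% of autosomal bases, 56.5% of all heart-and-carcass stretches, 56.0% of the heart-and-liver class and 41.0% of the hindbrain-and-carcass class. Intergenic DNA held 32.4%, against 58.2% of autosomal bases. Exons held 5.36% (interval 4.71 to 6.08%), against 3.45% of autosomal bases, 6.43% of all heart-and-carcass stretches, 7.51% of the heart-and-liver class and 6.08% of the hindbrain-and-carcass class, so that the share was above the autosomes and the lowest of these classes. Promoters, taken as the 1000 bp before a start site, held 3.09%, against 2.27%. CpG islands held 0.734% (interval 0.502 to 1.03%), against 0.939% of autosomal bases, which lies within that interval. They held 0.898% of all heart-and-carcass stretches, 0.234% of the heart-and-liver class and 0.341% of the hindbrain-and-carcass class. The 2000 bp beside islands held 4.40%, against 3.16% of autosomal bases. The median distance to a gene start was 27992 bp, with 17.9% within 5 kb and 33.8% beyond 50 kb, and it was 28044 bp over all heart-and-carcass stretches.

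**Figure D3:**
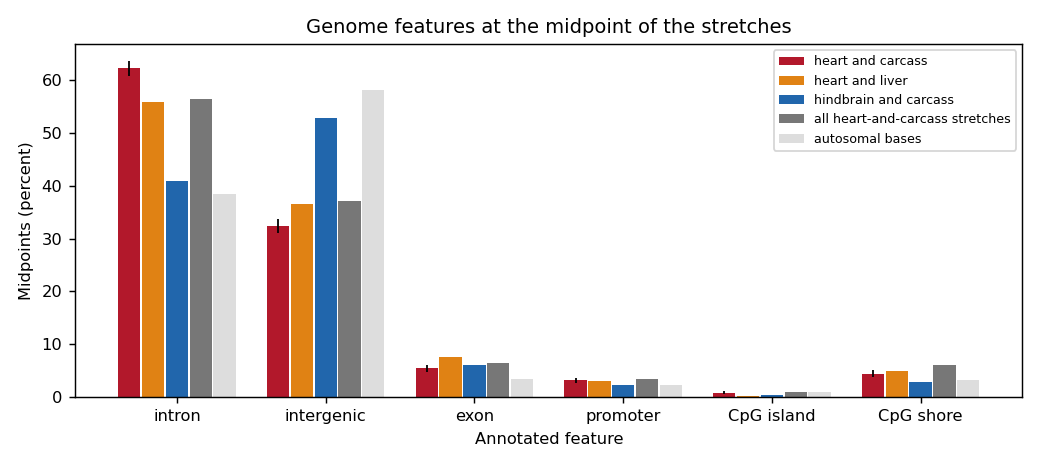
Percent of stretch midpoints (y axis) in each annotated feature (x axis) for the heart-and-carcass-only stretches (red, with 95% exact binomial intervals), the heart-and-liver class (orange), the hindbrain-and-carcass class (blue) and all heart-and-carcass stretches (dark grey), beside the percent of autosomal bases in that feature (light grey). Introns hold 62.3% of the red midpoints and 38.4% of autosomal bases.

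The stretches had a median GC content of 48%, against 41.9% of autosomal bases, and a median of 1.5 CpG dinucleotides per 100 bp, against 0.851 over the autosomes. All heart-and-carcass stretches had 48.1% GC and 1.71 CpG per 100 bp. The 12 stretches with no CpG were 0.275%, compared with 0.0870% of all heart-and-carcass stretches. The 464 stretches under a WT peak had 1.73 CpG per 100 bp and a median of 600 bp, and the 3898 under none had 1.5 and 500 bp. The density was 1.82 stretches per Mb of autosome, from 1.41 on chromosome 7 to 2.34 on chromosome 11.

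The median gap from a stretch to its nearest neighbour of this class was 70800 bp, 831 stretches (19.1%) had such a neighbour within 10 kb, and 3531 had none. Over all heart-and-carcass stretches, which are more numerous, 61.1% had a neighbour within 10 kb. At 55 places 3 or more followed each other with gaps of at most 10 kb. The fullest were 5 stretches over 21.1 kb in Asap1, an Arf GTPase-activating protein of podosomes and focal adhesions, and 5 over 14.2 kb in Schip1, a schwannomin-interacting protein. Sept9, a septin, held 4 over 10.2 kb, and Creb3l2, a membrane-bound transcription factor that controls cartilage secretion, 4 over 20.1 kb.

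At the gene level, 1810 of 21418 autosomal protein-coding genes (8.45%) had a stretch in the body or within 1 kb of it. Of these, 1193 had 1 stretch and 84 had 5 or more. Long genes had more room for them, and 40.3% of genes of at least 100 kb had a stretch. The gene models with the highest counts, Gm20388 with 27 and Fgfr2 with 14, span 4434.9 and 3009.1 kb in the annotation used and overlap many other genes, so their counts cannot be credited to single genes.

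Below these came genes of 204.2 to 603.9 kb. Maml3, a coactivator of Notch signalling, held 12 of its 60 heart-and-carcass stretches in this class (20.0%). Fto, an RNA demethylase gene, held 11 of 47. Msi2, an RNA-binding protein, and Cacna1c, the pore-forming subunit of the cardiac L-type calcium channel, held 10 each, of 65 and 41. Tead1, a transcription factor of the Hippo pathway, held 9 of 38, all of them intronic, and the classes only in null heart and liver and only in null hindbrain and carcass held 4 and 0 there. Stk39 and Rapgef4 held 9 each, Mast4 9, and Sh3pxd2a, a podosome scaffold, and Etv6, an ETS repressor, 8 each. Over all protein-coding genes, 11.1% of the heart-and-carcass stretches at a gene were in this class, and among these 10 genes the share ran from 15.4% in Msi2 to 32% in Sh3pxd2a. The genes were chosen for their counts, so this is a description.

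The Tead1 stretches differed in their distance from the excluded peaks. The stretch chr7:119963401-119964500, 1100 bp with 14 CpG dinucleotides, lay under null peaks of 1400 bp in heart i1, 1100 bp in heart i5, 1700 bp in carcass i1 and 3100 bp in carcass i5, and was 1900 bp from the nearest null hindbrain or liver peak. The stretch chr7:119828601-119829000, 400 bp, lay under peaks of 3200, 400, 2500 and 2700 bp and was 400 bp from such a peak. None of the 9 Tead1 stretches lay under a WT peak.

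Genes of 9 lists of cell types and structures were read in the same way, and their values were compared with 8.45% and with 3.01 stretches per Mb of gene span over all protein-coding genes. Of the heart muscle and cardiac factor list, 6 of 30 genes had a stretch (5.72 per Mb). At the same genes the heart-and-liver class had 23.6 stretches per Mb and the hindbrain-and-carcass class 3.81, against 7.41 and 5.69 over all protein-coding genes. Cacna1c held 10 of the list's 15 stretches. Myl7, the atrial myosin regulatory light chain, had 1 of 900 bp within 1 kb of its 3' end (chr11:5794801-5795700), with null peaks of 1500, 900, 1100 and 1200 bp in heart i1, heart i5, carcass i1 and carcass i5. Actc1, the cardiac alpha-actin, had 1 of 500 bp over a coding exon (chr2:113874701-113875200), with null peaks of 2000 and 1900 bp in heart and 500 and 600 bp in carcass. At both genes the stretch was the only one of the whole heart-and-carcass set.

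The skeletal muscle list had 4 of 23 genes with a stretch (5.71 per Mb). Myf6, a myogenic transcription factor, had 1 in its promoter and 1 within 1 kb of its 3' end (chr10:106932001-106932300 and chr10:106928801-106929000). The promoter stretch lay under null peaks of 600 and 300 bp in heart i1 and i5 and 1200 and 1300 bp in carcass i1 and i5, and the nearest null hindbrain or liver peak was 7600 bp away. Pax3 and Pax7, transcription factors of muscle precursors that are also active in the neural tube, had 2 and 1 intronic stretches. Beside them lay 4 and 5 stretches that were only in null hindbrain and carcass. At skeletal muscle genes that class had 19.03 stretches per Mb, against 3.81 for the heart-and-liver class.

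The endothelium and endocardium list had 7 of 25 genes with a stretch (5.89 per Mb), and there the heart-and-liver class had 12.4 stretches per Mb and the hindbrain-and-carcass class 2.95. Nrp2 and Nrp1, coreceptors for VEGF and semaphorins, held 2 each, and so did Ets1, an endothelial transcription factor. One of the Ets1 stretches was 1100 bp long (chr9:32508701-32509800), under null peaks of 3100, 1300, 1200 and 2100 bp. The other lay under a 600 bp peak of WT liver i6. The smooth muscle and pericyte list had 2 of 18 genes (2.30 per Mb). These were Mkl1, a coactivator of serum response factor, with 2 stretches, and Abcc9, a subunit of potassium channels of pericytes and muscle, with 1 in its promoter.

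The list of cell-matrix adhesion and actin genes had the highest share, with 9 of 24 genes (37.5%), at 5.68 stretches per Mb, against 11.4 for the heart-and-liver and 4.34 for the hindbrain-and-carcass class. Its genes are long, with a median of 97.0 kb against 15.5 kb over all protein-coding genes, which moves with the share. Parva, the focal adhesion protein alpha-parvin, held 3 stretches, and Myh9, a non-muscle myosin heavy chain, and Itgav, the integrin alpha V subunit, held 2 each. The mesenchyme and matrix list had 3 of 34 genes (3.26 per Mb). Of these, Prrx2, a homeobox factor of limb and facial mesenchyme, held 3 neighbouring stretches that ran from before its start into the gene (chr2:30688901-30691300), which in heart i1 were a single peak of 2900 bp and in carcass i5 one of 4600 bp. Col12a1, a fibril-associated collagen, held 2 in exons.

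The lists for the excluded tissues and for blood had 4 genes with a stretch in all. Of the hindbrain and neural list, 1 of 27 genes had one (0.580 per Mb), Lmx1b, a LIM homeobox factor of dorsal limb mesenchyme as well as of brain. Of the hepatocyte list 2 of 21 had one (3.92 per Mb, above the value over all genes, and 0 of 21 genes where a null hindbrain or liver peak within 1 kb was also excluded), among them Prox1, which is also a factor of lymphatic endothelium and of heart. Of the erythroid and blood list 1 of 18 had one (1.34 per Mb), the membrane skeleton gene Ank1. The rule itself removed stretches with null hindbrain or liver peaks, so these counts are partly fixed by it.

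**Figure D4:**
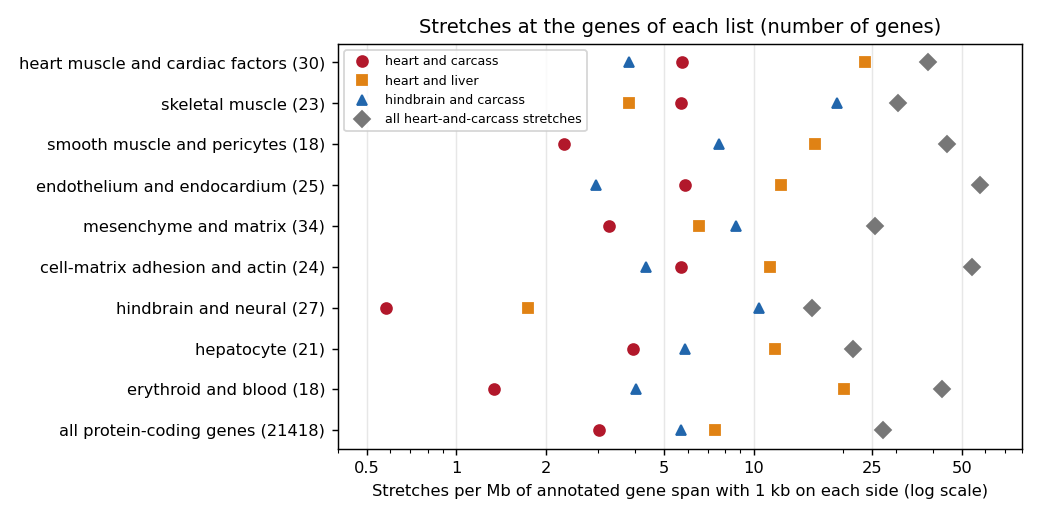
Stretches per Mb of gene span with 1 kb on each side (x axis, log scale) at the genes of each list (y axis, number of genes in brackets), for the heart-and-carcass-only stretches (red circles), the heart-and-liver class (orange squares), the hindbrain-and-carcass class (blue triangles) and all heart-and-carcass stretches (grey diamonds). The red circles range from 0.580 per Mb for hindbrain and neural genes to 5.89 for endothelium and endocardium.

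Of all heart-and-carcass stretches at protein-coding genes, 11.1% were heart-and-carcass-only stretches. The share was 14.9% at heart muscle genes (15 of 101), 18.8% at skeletal muscle genes (6 of 32) and 18.2% at hepatocyte genes (2 of 11). Cacna1c alone held 10 of the 15 and 41 of the 101 at heart muscle genes. The share was 12.8% at mesenchyme and matrix genes (6 of 47), 10.5% at adhesion genes (17 of 162) and 10.2% at endothelial genes (10 of 98). It was 5.17% at smooth muscle and pericyte genes (3 of 58), 3.70% at hindbrain and neural genes (1 of 27) and 3.12% at erythroid and blood genes (1 of 32). At endothelial and adhesion genes the high density was thus matched by that of the whole set, with 57.7 and 54.1 stretches per Mb against 27.3. When stretches with a null hindbrain or liver peak within 1 kb were left out as well, 4.84% of all genes held one. Genes with a stretch then numbered 4 of 30 for heart muscle, 3 of 23 for skeletal muscle, 4 of 25 for endothelium and 4 of 24 for adhesion. The densities were 3.43, 3.81, 2.95 and 2.34 stretches per Mb in the same order, against 1.37 over all genes. With equal numbers of the longest peaks, the genes numbered 2, 2, 5 and 4, against 4.14% of all genes. The densities were then 1.14, 1.90, 4.12 and 1.67 per Mb, against 1.31, so by density the heart muscle list turned from above to below the value over all genes, while its share of genes (6.67%) stayed above. Other lists turned as well. With the margin of 1 kb, hepatocyte genes went from 3.92 per Mb to 0 of 21 genes, mesenchyme and matrix genes from 3.26 to 1.09 per Mb, below the value over all genes, and smooth muscle and pericyte genes stayed at 2.30 per Mb, which was then above it. Both alternatives were chosen for the lists after the data were seen.

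Short motifs of transcription factor families were searched on both strands in the central 200 bp of each stretch, and a match is a run of letters and not a bound site. The GATA motif AGATAA was in 13.8% of the stretches (interval 12.8 to 14.9%), against 13.8% of all heart-and-carcass stretches and 13.2% of autosomal windows. It was in 30.3% of the heart-and-liver class and 6.56% of the hindbrain-and-carcass class. GATA factors act in heart, endothelium and blood. The heart-and-carcass-only stretches were therefore at the level of the autosomes in a motif in which the other pairs stood above and below it.

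The E-box CAGCTG, a form bound by myogenic and other bHLH factors, was in 17.7% of the stretches, 19.05% of all heart-and-carcass stretches and 7.37% of autosomal windows, and in 13.7% of the heart-and-liver and 20.5% of the hindbrain-and-carcass class. MEIS TGACAG was in 22.4%, against 21.9% of all heart-and-carcass stretches and 12.6% of autosomal windows. TEAD GGAATG was in 15.2% (interval 14.2 to 16.3%), against 10.8% of autosomal windows, 14.5% of all heart-and-carcass stretches, 13.1% of the heart-and-liver and 11.97% of the hindbrain-and-carcass class. NK2 CAAGTG, of the family of Nkx2-5, was in 14.7%, against 13.4% of all heart-and-carcass stretches and 11.1% of autosomal windows. For these 4 motifs the stretches were thus nearer to the whole heart-and-carcass set than to the autosomes. The T-box motif AGGTGT was in 9.67% (interval 8.81 to 10.6%), against 8.17% of all heart-and-carcass stretches and 10.1% of autosomal windows.

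Other motifs were found less often than over the autosomes. The homeodomain core TAATTA was in 3.71%, against 4.35% of all heart-and-carcass stretches, 7.15% of autosomal windows and 9.26% of the hindbrain-and-carcass class. CTAAAAA, which is part of the MEF2 site, was in 2.80%, against 2.68% of all heart-and-carcass stretches and 4.59% of autosomal windows. The SOX motif ACAATG was in 9.15%, against 9.64% of all heart-and-carcass stretches, 12.5% of autosomal windows and 15.2% of the hindbrain-and-carcass class. The stretches had more GC than the autosomes, as given above, and the part of base composition in the motif values was not tested. E-boxes of any kind, CANNTG, include CAGCTG and CATCTG and were in 72.4% of the stretches and 65.7% of autosomal windows.

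**Figure D5:**
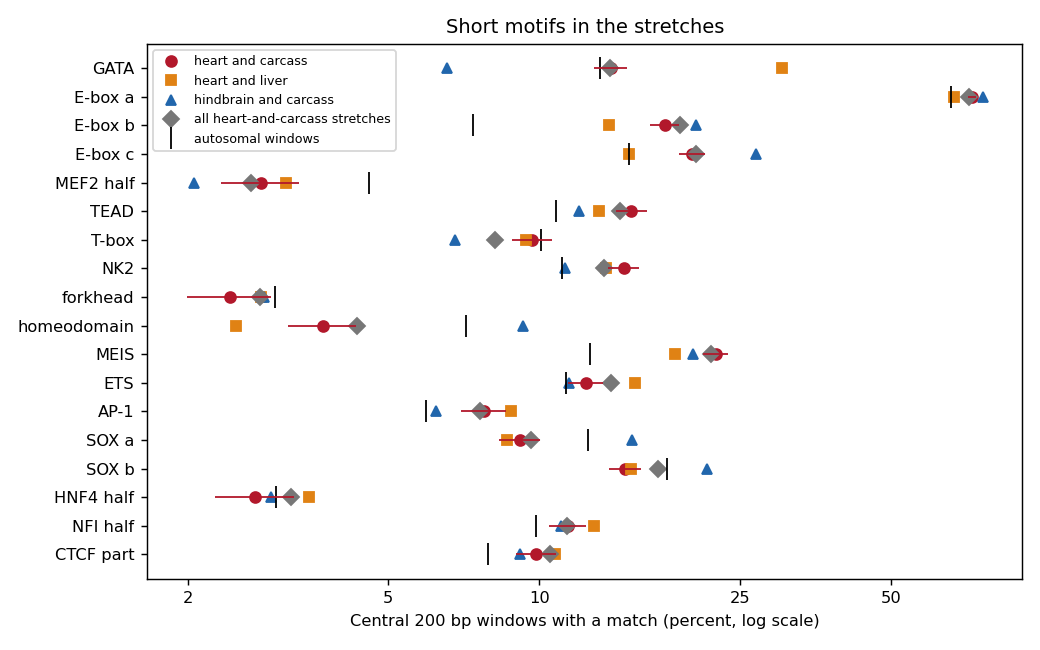
Percent of central 200 bp windows with a match (x axis, log scale) to each motif (y axis) in the heart-and-carcass-only stretches (red circles, with 95% exact binomial intervals), the heart-and-liver class (orange squares), the hindbrain-and-carcass class (blue triangles), all heart-and-carcass stretches (grey diamonds) and autosomal windows (black bars). For GATA the red circle is at 13.8%, between 6.56% and 30.3% for the other pairs, and E-box a, b and c are the general form and its GC-centred and TC-centred forms.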

How the data were processed

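5fC was mapped by pull-down sequencing in 20 libraries from 12 embryos. Per the paper's methods and the submitters' processing notes, the authors trimmed reads with Trim Galore, aligned them to NCBIM37 (mm9) with Bowtie2 and called peaks with MACS separately in each library. The deposited files give positions of peaks, with no score, read count or signal, so the depth is unknown, and a base without a peak may lack 5fC or reads. Peak positions fell on a 100 bp grid and are given here counted from 1. Libraries differ widely in peak number, and how far this moves the overlaps was tested only by the alternatives named below.

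Stretches, classes, features, CpG and motifs were computed with Python 3.11.15, numpy 2.4.6, pandas 2.3.3, numba 0.67.0 and scipy 1.17.1 from the files, the NCBIM37 genome and GENCODE vM1 genes. CpG islands were 500 bp windows with at least 55% GC and an observed over expected CpG above 0.65, merged. The stretch finder, motif search and permutation test were tested on simulated data with known answers. Named genes were the 12 protein-coding genes with the most stretches and the 3 with the most in each list, with ties broken by more stretches per Mb of gene span. Named regions were the 10 longest and the 10 under the most WT heart and carcass libraries, and not all are printed. Genes and regions of 1 chromosome, and 1 other gene that the rule names, are not reported here by name. Symbols that were unmatched or duplicated were dropped from the lists. The stretches and lists were chosen with earlier results of these data known. The 2 null livers differ greatly in peak number, and the paper left 1 of its null liver replicates out for poor quality. The rule used the null liver of embryo i1. Alternatives varied the length limit, margins, peak length and number, libraries, WT background and gene window.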

Additional observations from a re-analysis of the deposited data

How the results depend on the processing

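The number of heart-and-carcass-only stretches was 4362. It stayed within 1.5 times of that value with other length limits, a margin of 200 bp or close peaks merged. The same held with bases under null hindbrain or liver peaks cut out. Excluding the second null liver too could not change the number, because that library covered none of the stretches. The number was 2035 with no null hindbrain or liver peak within 1000 bp, and 2506 with null heart and carcass peaks of at least 600 bp. It was 1782 with the longest peaks in equal number per library. Leaving out 1 null library gave 4525 to 11312 stretches, the highest without null heart i5, 8748 without null carcass i1 and 9508 without null liver i1, since each requirement or exclusion removes stretches.

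The difference in WT ratio between heart and carcass and hindbrain and liver was positive in every alternative that compared these sides. With 1 mean per embryo and side it was 0.0991 (exact permutation p = 0.5). The replicate block by embryo compared heart and carcass with liver alone, and gave -0.0870. For the difference from hindbrain and liver together, leaving out 1 library gave 0.0702 to 0.230. The exact permutation p ran from 0.0397 without WT liver i6 (0.161) to 0.512. The difference from WT hindbrain over embryos was 0.154 to 0.381 without 1 library. With the heart-and-liver class as the background it was -0.355, where WT hindbrain 2A8 drops out because it covered no stretch of that class. With the hindbrain-and-carcass class as the background it was 1.02. The cause was not tested. The percentages by midpoint moved with any overlap in place of midpoints for all features but intergenic DNA, and the promoter share moved with a promoter reaching 2000 bp upstream. Of 18 motif ratios to all heart-and-carcass stretches, 3 (T-box, SOX ACAAAG and HNF4) moved beyond their intervals when matches were counted per kb of whole stretch. The number of genes with a stretch was 1748 in gene bodies and 2243 within 10 kb. No alternative took median GC or CpG beyond 1 SD of the stretches. Peak files give no depth, so a stretch without a WT peak may hold 5fC below the limit of calling, and the 2 WT embryos that gave heart, carcass and liver limit every test.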
